A study of Mus musculus with 9 samples.

Results

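The 9 genes described here encode the hydrolases that small-intestinal enterocytes carry on their apical brush border: the phosphatase Alpi, the glycosidases Sis, Mgam, Lct and Treh, and the peptidases Anpep, Dpp4, Enpep and Mme. They were taken by symbol for this shared role, with earlier results of these data known, and all 9 were found among the 46517 genes of the count tables. Colonies of mouse intestinal stem cells were grown for 4 days inside 1 of 3 matrices, with 3 libraries in each: a hydrogel of polyethylene glycol (PEG) that cells cannot degrade, a PEG hydrogel that they can degrade, and Matrigel, a basement membrane extract of a mouse tumour that serves as the customary matrix. Every group was cultured in the same factors, namely EGF, noggin, R-spondin, valproic acid and CHIR99021, an inhibitor of GSK3, so that no group stands for unstimulated tissue. The sources used here do not give the mouse strain, age or genotype, the bonds that make 1 gel degradable, or the ligands and stiffness of the gels. The labels do not state that replicates came from different animals or cultures. A p-value here therefore reflects the scatter of these 9 libraries alone, and that scatter may be technical.

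Brush border hydrolases complete digestion at the surface of the gut. The glycosidases cut disaccharides and the ends of starch chains to monosaccharides, and the peptidases cut peptides to amino acids and short peptides. Intestinal alkaline phosphatase removes phosphate groups, among others from bacterial lipopolysaccharide. Stem cells and dividing crypt cells make little of most of these enzymes, whose transcripts accumulate as enterocytes mature and move on to the villus. In mice lactase is the disaccharidase of the suckling gut, whereas sucrase-isomaltase and trehalase appear around weaning. CHIR99021 and valproic acid are used in such cultures to hold cells in a stem-like state.

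The libraries held 38.0 to 47.2 M reads assigned to genes, and 14870 genes had enough counts to be tested. Of the 9 enzymes, 8 were tested and Treh was not. Levels are given as CPM, the counts of a gene per M counts of its library after scaling. As a check of the labelled cell type, 6 stem cell markers summed to 2192 to 2251 CPM in non-degradable PEG, to 2569 to 2755 CPM in degradable PEG and to 2989 to 3194 CPM in Matrigel, and 12 enterocyte markers summed to 1109 to 1201, 669 to 956 and 848 to 1033 CPM in the same order of matrices. All libraries thus held both stem cell and enterocyte transcripts. The 6 stem cell markers did not move alike, by genes named after their values were seen. Smoc2 was the largest part of their sum, at 1060 to 1240, 1323 to 1420 and 1901 to 1987 CPM in that order. Ascl2 went the other way (24.1 to 27.7, 27.0 to 32.2 and 13.5 to 17.5 CPM), and the ranges of Lgr5 overlapped. In such bulk samples fewer enterocytes and less RNA per enterocyte cannot be told apart.

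Against Matrigel, Anpep and Dpp4 were lower in both PEG gels, Sis and Enpep were lower in degradable PEG, and Alpi was higher in non-degradable PEG. Of the 8 tested enzymes, 1 rose and 2 fell in non-degradable PEG against Matrigel by edgeR's quasi-likelihood test at an adjusted p under 0.05 (Benjamini-Hochberg), where 16.8% of all tested genes were called, 9.71% higher and 7.13% lower. In degradable PEG against Matrigel 0 rose and 4 fell, namely Sis, Anpep, Dpp4 and Enpep, where 12.2% of all genes were called, 7.42% higher and 4.79% lower. In non-degradable against degradable PEG 3 rose and 0 fell, namely Alpi, Sis and Enpep, where 1.28% of all genes were called, 0.814% higher and 0.464% lower. The median log2 fold change of the 8 enzymes was 0.06, -0.86 and 0.83 in these comparisons, and that of all tested genes was -0.00, -0.02 and 0.00. Counted instead by libraries that do not overlap between 2 matrices, in non-degradable PEG against Matrigel 1 enzyme lay wholly above (Lct) and 2 wholly below (Anpep, Dpp4), where 43.4% of all genes did not overlap, 21.8% above and 21.6% below. In degradable PEG against Matrigel 0 lay above and 5 below (Alpi, Sis, Anpep, Dpp4, Enpep), where 30.4% of all genes did not overlap, 15.6% above and 14.8% below. In non-degradable against degradable PEG 5 lay above (Alpi, Sis, Lct, Enpep, Mme) and 0 below, where 19% of all genes did not overlap, 10% above and 9.02% below. The 2 comparisons with Matrigel share the Matrigel libraries, and the 2 PEG gels are each used in 2 comparisons.

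The counts rest on few libraries. Without 1 library at a time, the number of enzymes called ran from 1 to 4 in non-degradable PEG against Matrigel, from 4 to 5 in degradable PEG against Matrigel and from 1 to 4 between the PEG gels. It was 1 in the first without non-degradable PEG replicate 3, and 2 without replicate 1 or 2 of non-degradable PEG or any replicate of Matrigel. Calls over all genes were 1189 of 15083 without non-degradable PEG replicate 3 and 1452 to 2151 in those other fits. Between the PEG gels the number of enzymes was 1 without non-degradable PEG replicate 1 or degradable PEG replicate 2, and 2 without degradable PEG replicate 3. Calls over all genes in these 3 fits were 28 of 15109, 19 of 15102 and 139 of 15131, against 190 of 14870 with every library. With the replicate number as a block, which applies to non-degradable PEG against Matrigel, 4 enzymes and 3877 genes were called there, against 3 enzymes and 2504 genes without it.

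**Figure D1:**
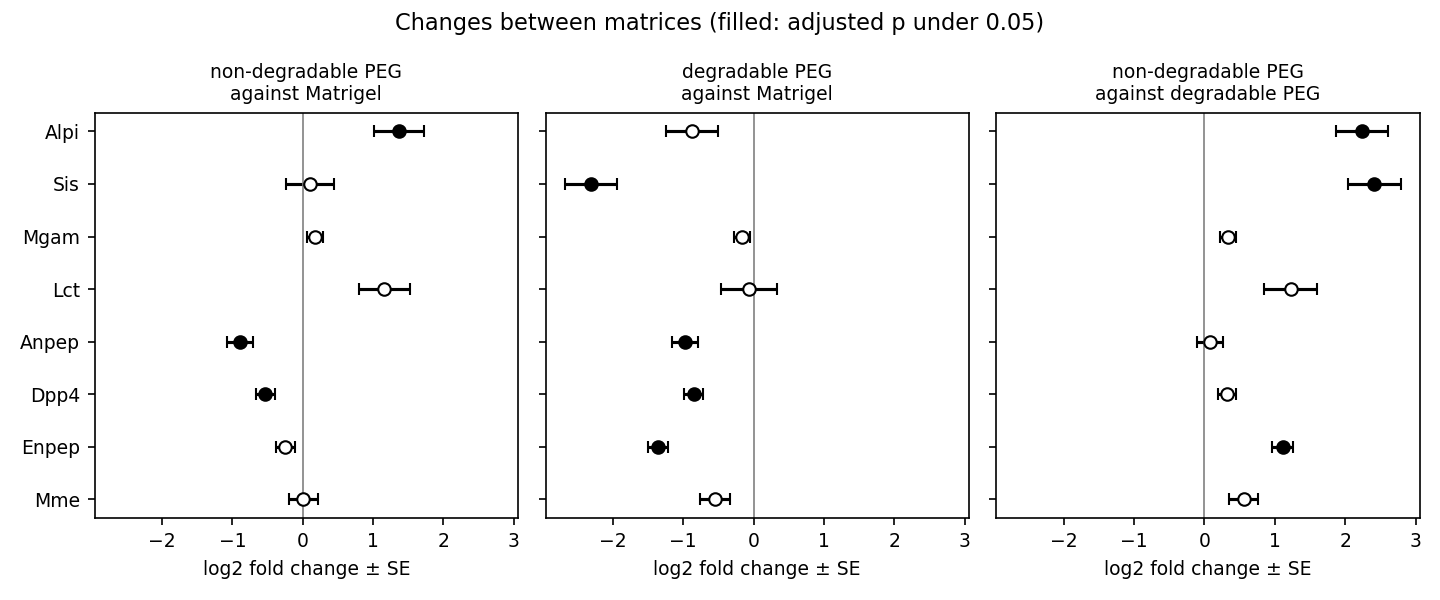
Log2 fold change of each tested enzyme (x axis) with its standard error, for the 3 comparisons of matrices; filled points passed an adjusted p of 0.05 and open points did not. The 4 filled points of degradable PEG against Matrigel (Sis, Anpep, Dpp4, Enpep) all lie below 0, and the 3 of non-degradable against degradable PEG (Alpi, Sis, Enpep) all lie above 0.

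Promoter sequences of Sis, Alpi, Enpep and Mgam are given because Sis, Alpi and Enpep separated the 2 PEG gels while Mgam, the closest relative of Sis, did not pass in any comparison. Each is the 250 bases before the transcription start, from RefSeq on GRCm38.p6, written 5′ to 3′ on the gene's own strand, and all 9 enzymes had an entry. Capitals mark matches on either strand to the letters of 3 motifs whose factors are known as regulators of intestinal genes. The letters TTTATG stand for the binding motif of the CDX family. For the GATA family the search used the letters GATAAG on both strands. The longest motif searched was CAAAGTCCA, which is bound by HNF4. The motifs do not overlap one another in these windows.
Sis: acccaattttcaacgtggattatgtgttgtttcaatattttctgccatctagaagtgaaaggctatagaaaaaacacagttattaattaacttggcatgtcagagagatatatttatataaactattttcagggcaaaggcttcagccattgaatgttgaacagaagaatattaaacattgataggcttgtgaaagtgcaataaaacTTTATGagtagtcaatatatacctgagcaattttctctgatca
Alpi: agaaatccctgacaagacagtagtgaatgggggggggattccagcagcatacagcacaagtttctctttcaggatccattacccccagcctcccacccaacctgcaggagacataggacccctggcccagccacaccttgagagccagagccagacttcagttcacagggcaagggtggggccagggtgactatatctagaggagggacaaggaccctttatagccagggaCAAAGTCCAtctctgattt
Enpep: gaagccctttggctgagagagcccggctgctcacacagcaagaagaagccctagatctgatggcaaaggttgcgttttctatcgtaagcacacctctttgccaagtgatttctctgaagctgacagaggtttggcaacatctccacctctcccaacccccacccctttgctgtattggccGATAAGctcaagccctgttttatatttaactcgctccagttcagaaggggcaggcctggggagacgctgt
Mgam: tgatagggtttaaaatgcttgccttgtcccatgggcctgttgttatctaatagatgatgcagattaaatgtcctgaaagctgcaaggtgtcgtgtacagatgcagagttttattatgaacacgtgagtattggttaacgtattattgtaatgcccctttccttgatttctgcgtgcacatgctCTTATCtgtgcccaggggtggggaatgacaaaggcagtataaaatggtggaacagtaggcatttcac
The Sis window (chr3:72967864-72968113, minus strand) holds the CDX letters 43 to 38 bases before the start. In the Alpi window (chr1:87101607-87101856, minus strand) the HNF4 letters lie 19 to 11 bases before the start. The GATA letters lie 70 to 65 bases before the start of Enpep (chr3:129332750-129332999, minus strand) and, in reverse, 67 to 62 bases before that of Mgam (chr6:40628581-40628830, plus strand). Lct also holds the CDX letters and Treh the HNF4 letters, and the windows of Anpep, Dpp4 and Mme hold none of the 3. The Anpep window (chr7:79848211-79848460) and the 3 windows of Mme lie inside the gene spans given below. Sequence before the outermost start of those spans was not searched. Among 32851 RefSeq promoters of the same length, 10.76% hold the CDX letters, 6.55% the GATA letters and 0.384% the HNF4 letters. The motifs were chosen after the promoter sequences were read, so these shares cannot show an excess of matches in the enzymes. A match here is a run of letters and describes the window alone.

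Alpi, intestinal alkaline phosphatase (ENSMUSG00000079440, chromosome 1, 87098002 to 87101606, GRCm38, minus strand), is a lipid-anchored enzyme whose activity is the classical stain for a differentiated brush border. Its level was 12.8, 6.43 and 17.3 CPM in non-degradable PEG, 2.92, 2.33 and 2.51 CPM in degradable PEG and 7.27, 3.52 and 3.48 CPM in Matrigel. Every library in non-degradable PEG lay above every library in degradable PEG, every one in degradable PEG lay below Matrigel, and the lowest in non-degradable PEG lay within the range of Matrigel. Alpi rose 2.58-fold in non-degradable PEG against Matrigel (log2 fold change 1.37 ± 0.352 SE, edgeR adjusted p = 0.0230). Against degradable PEG it rose 4.72-fold (2.24 ± 0.370, edgeR adjusted p = 0.0202) and stood 58th of all genes by p. In degradable PEG against Matrigel the log2 difference of -0.87 ± 0.372 did not pass (edgeR adjusted p = 0.156), although its 95% interval, -1.69 to -0.06, lay below 0. Both calls depended on single libraries: the adjusted p against Matrigel was 0.0606 and 0.100 without replicates 1 and 3 of non-degradable PEG, and 0.0823 and 0.0768 without Matrigel replicates 2 and 3. That against degradable PEG was 0.0829 without non-degradable PEG replicate 1 and 0.117 and 0.0516 without degradable PEG replicates 2 and 3.

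Akp3, a second intestinal-type alkaline phosphatase gene in mice, lies 23.4 kb from Alpi on the opposite strand. It was all but silent outside non-degradable PEG, with counts of 104, 20 and 192 there, 4, 3 and 9 in degradable PEG and 11, 3 and 2 in Matrigel. It rose in non-degradable PEG against degradable PEG (log2 fold change 4.20 ± 0.802, edgeR adjusted p = 0.0333) and against Matrigel (4.35 ± 0.800, 0.00435), where it was named after its values were seen. The call against degradable PEG was lost without any 1 of 5 libraries (replicate 1 or 3 of non-degradable PEG, or any replicate of degradable PEG), with an adjusted p from 0.0618 to 0.173, and in limma-voom (0.113). The libraries that were highest for Akp3 in non-degradable PEG, replicate 3 and then replicate 1, were also highest for Alpi. Alppl2, a further member of this family 8.07 kb from Alpi, had 1 to 12 counts in every library and was not tested. The count tables tally non-unique alignments apart from the genes, so reads shared by such related genes may be missing here. Levels this low are therefore uncertain.

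**Figure D2:**
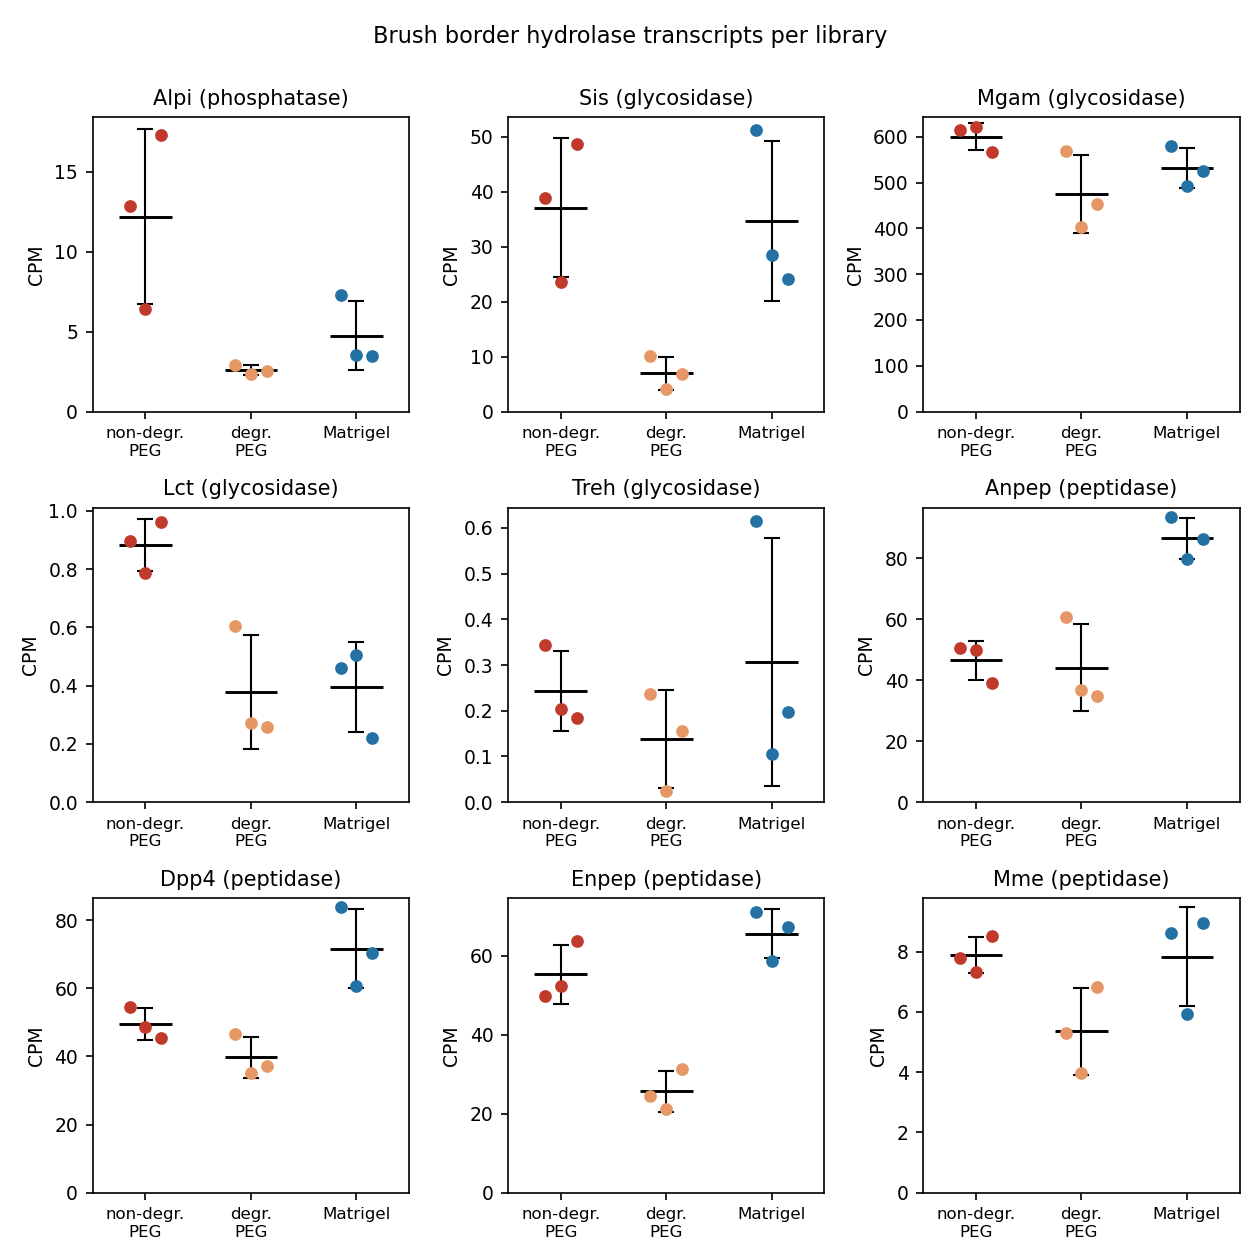
Level of each of the 9 enzymes in CPM (y axis, from 0) in the 3 libraries of each matrix, drawn left to right as replicates 1 to 3; the long line is the mean and the bar the SD (n = 3). For Sis and Enpep the degradable PEG libraries sit apart below the others, while Mgam lies between 404 and 621 CPM in all matrices.

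Sis, sucrase-isomaltase (ENSMUSG00000027790, chromosome 3, 72888557 to 72967863, minus strand), splits sucrose and the branch points of starch. Its level was 38.8, 23.6 and 48.7 CPM in non-degradable PEG, 10.0189, 4.03 and 6.85 CPM in degradable PEG and 51.2, 28.5 and 24.2 CPM in Matrigel. Degradable PEG overlapped with neither of the others, while non-degradable PEG and Matrigel covered nearly the same range. Sis fell 4.97-fold in degradable PEG against Matrigel (log2 fold change -2.31 ± 0.371, edgeR adjusted p = 0.00230) and rose 5.33-fold in non-degradable against degradable PEG (2.41 ± 0.372, edgeR adjusted p = 0.0152). Between non-degradable PEG and Matrigel the log2 difference was 0.10 ± 0.339 (edgeR adjusted p = 0.868), with a 95% interval from -0.64 to 0.85, so a change of moderate size in either direction was not detectable at this spread. The fall against Matrigel kept an adjusted p under 0.05 in all 17 alternative analyses. The call between the PEG gels was lost without non-degradable PEG replicate 1 (adjusted p 0.0594) or degradable PEG replicate 2 (0.0827).

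Mgam, maltase-glucoamylase (ENSMUSG00000068587, chromosome 6, 40628831 to 40769123, plus strand), is the paralog of Sis and releases glucose from maltose and starch fragments. Its level was 614, 621 and 566 CPM in non-degradable PEG, 569.6, 404 and 453 CPM in degradable PEG and 579, 492 and 526 CPM in Matrigel. The ranges overlapped for each pair of matrices. The log2 differences were 0.17 ± 0.114 in non-degradable PEG against Matrigel (edgeR adjusted p = 0.323), -0.16 ± 0.115 in degradable PEG against Matrigel (0.397) and 0.34 ± 0.115 between the PEG gels (0.213). Their 95% intervals were -0.08 to 0.43, -0.42 to 0.09 and 0.09 to 0.59. Degradable PEG replicate 1 stood above the other libraries of its matrix, and without it Mgam fell in degradable PEG against Matrigel (-0.31, edgeR adjusted p = 0.0411) and rose in non-degradable against degradable PEG (0.48, 0.0425).

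The ratio of Mgam to Sis, each per kilobase of exon, shows how unequally the paralogs were set in each matrix. It was 13.6, 22.6 and 9.96 in the non-degradable gel, 48.7, 85.9 and 56.7 in the degradable gel and 9.70, 14.8 and 18.7 in Matrigel. All libraries in degradable PEG lay above all others. No test of this ratio is given, since both of its genes were tested above.

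Lct, lactase (ENSMUSG00000026354, chromosome 1, 128284756 to 128328318, minus strand), and Treh, the trehalose-splitting enzyme (ENSMUSG00000032098, chromosome 9, 44673233 to 44686305, plus strand), were present in traces. Lct had 34, 31 and 42 counts in non-degradable PEG, 23, 11 and 10 counts in degradable PEG and 18, 24 and 10 in Matrigel, and every non-degradable PEG library lay above every other. Its level averaged 0.883 ± 0.0886 CPM in non-degradable PEG, 0.378 ± 0.196 CPM in degradable PEG and 0.395 ± 0.153 CPM in Matrigel (SD, n = 3 each). The log2 difference in non-degradable PEG against Matrigel, 1.16 ± 0.363, missed the threshold (edgeR adjusted p = 0.0502), and with the replicate block it passed (0.0311). Between the PEG gels the log2 difference of 1.22 ± 0.372 did not pass (edgeR adjusted p = 0.166), nor did the -0.07 ± 0.404 in degradable PEG against Matrigel (0.938). Treh had 13, 8 and 8 counts in non-degradable PEG, 9, 1 and 6 counts in degradable PEG and 24, 5 and 9 in Matrigel, and it was not tested. It shares 2 exonic bases with Phldb1 on the opposite strand, which had 630 to 978 counts, and the strand setting of the counting is not given, so some Treh counts may belong to that gene.

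Anpep, aminopeptidase N (ENSMUSG00000039062, chromosome 7, 79821803 to 79861059, minus strand), takes neutral amino acids off the front of peptides. Its level was 50.6, 49.8 and 39.2 CPM in non-degradable PEG, 60.6, 36.9 and 34.8 CPM in degradable PEG and 93.3, 79.7 and 86.3 CPM in Matrigel. Neither PEG gel overlapped with Matrigel, and the PEG gels overlapped with each other. Anpep fell in non-degradable PEG against Matrigel (log2 fold change -0.89 ± 0.183, edgeR adjusted p = 0.00775) and in degradable PEG against Matrigel (-0.97 ± 0.184, edgeR adjusted p = 0.00582). Both calls were kept in all 17 alternative analyses. The log2 difference between the PEG gels was 0.08 ± 0.184 (edgeR adjusted p = 0.871), with a 95% interval from -0.33 to 0.48.

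Dpp4, dipeptidyl peptidase 4 (ENSMUSG00000035000, chromosome 2, 62330073 to 62412231, minus strand), removes dipeptides that end in proline or alanine and inactivates incretin hormones. Its level was 54.7, 48.6 and 45.4 CPM in non-degradable PEG, 46.6, 35.2 and 37.3 CPM in degradable PEG and 83.9, 60.7 and 70.2 CPM in Matrigel. Again neither PEG gel overlapped with Matrigel. Dpp4 fell in degradable PEG against Matrigel (log2 fold change -0.85 ± 0.133, edgeR adjusted p = 0.00202), a call kept in all 17 alternatives. It also fell in non-degradable PEG against Matrigel (-0.53 ± 0.132, edgeR adjusted p = 0.01997), which was lost without non-degradable PEG replicates 2 (0.0518) or 3 (0.0820) or Matrigel replicate 1 (0.0773). Between the PEG gels the log2 difference of 0.32 ± 0.133 did not pass (edgeR adjusted p = 0.305). The antisense gene Gm13561, which shares 232 exonic bases with Dpp4, had 0 counts in every library.

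Enpep, aminopeptidase A (ENSMUSG00000028024, chromosome 3, 129269175 to 129332720, minus strand), takes acidic amino acids off peptides, among them angiotensin II. Its level was 49.96, 52.3 and 63.9 CPM in non-degradable PEG, 24.5, 21.1 and 31.4 CPM in degradable PEG and 71.1, 58.7 and 67.2 CPM in Matrigel. The lowest library of non-degradable PEG and of Matrigel lay well above the highest of degradable PEG. Enpep fell 2.56-fold in degradable PEG against Matrigel (log2 fold change -1.36 ± 0.143, edgeR adjusted p = 2.22e-04), where it ranked 76th of all genes by p. It rose 2.16-fold in non-degradable against degradable PEG (1.11 ± 0.143, edgeR adjusted p = 0.0109), where it ranked 10th. Both calls held in all 17 alternatives. In non-degradable PEG against Matrigel the log2 difference of -0.25 ± 0.139 did not pass (edgeR adjusted p = 0.249), with a 95% interval from -0.55 to 0.06.

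Mme, neprilysin (ENSMUSG00000027820, chromosome 3, 63241537 to 63386030, plus strand), cuts peptides internally, before hydrophobic residues. Its level was 7.79, 7.32 and 8.50 CPM in non-degradable PEG, 5.29, 3.96 and 6.82 CPM in degradable PEG and 8.63, 5.94 and 8.94 CPM in Matrigel. Non-degradable PEG lay above degradable PEG in every library and within the range of Matrigel. No comparison passed: the log2 difference was 0.01 ± 0.205 in non-degradable PEG against Matrigel (edgeR adjusted p = 0.983), -0.55 ± 0.208 in degradable PEG against Matrigel (0.115) and 0.56 ± 0.208 between the PEG gels (0.260).

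Several of these peptidases are also made outside the epithelium, Dpp4 by T cells and fibroblasts, Anpep by myeloid cells, Enpep by pericytes and Mme by lymphoid precursors and stroma. The 10 blood cell markers summed to 2.97 to 3.91 CPM in non-degradable PEG, to 1.98 to 2.61 CPM in degradable PEG and to 1.33 to 1.77 CPM in Matrigel, most of it from Itgam, and Ptprc, Cd4, Cd8a and Hbb-bs had 0 counts in every library. The 9 mesenchymal markers summed to 7.32 to 8.78, 5.36 to 9.43 and 5.17 to 8.39 CPM, with Col3a1, Dcn and Lum at 0. The 6 endothelial and pericyte markers summed to 0.423 to 0.436, 0.342 to 0.4700 and 0.256 to 0.337 CPM, with Cdh5 at 0. Itgam, the single blood marker with enough counts to be tested, rose in non-degradable PEG against Matrigel (1.22 ± 0.212, edgeR adjusted p = 0.00311). The part of these cells in the levels of the peptidases was not tested.

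Per kilobase of exon, which allows levels of different genes to be compared, Mgam was the most abundant of the 9 in every library. Its level per length averaged 69.0 ± 3.47 CPM per kb in non-degradable PEG, 54.6 ± 9.78 in degradable PEG and 61.2 ± 5.02 in Matrigel (SD, n = 3), which was at the 95.7, 94.2 and 94.98 percentile of 14814 tested genes with a known length. Mgam made up 62.2 ± 3.23% of the summed level of the 9 enzymes in non-degradable PEG, 68.6 ± 0.366% in degradable PEG and 53.3 ± 1.41% in Matrigel. Anpep, Enpep and Dpp4 followed, and their order changed with the matrix. In Matrigel Anpep stood at 20.9 ± 1.64 CPM per kb, ahead of Enpep at 14.0 ± 1.34 and Dpp4 at 11.3 ± 1.84. In non-degradable PEG Enpep (11.8 ± 1.58 CPM per kb) and Anpep (11.3 ± 1.55) were within their spread of each other, and in degradable PEG Dpp4 (6.28 ± 0.962) and Enpep (5.45 ± 1.12) were, below Anpep at 10.7 ± 3.46. In the PEG gels Alpi and Sis were also within their spread of each other. They stood at 5.21 ± 2.34 and 4.96 ± 1.69 CPM per kb in non-degradable PEG and at 1.11 ± 0.130 and 0.933 ± 0.401 in degradable PEG. In Matrigel Alpi was at 2.03 ± 0.933 and Sis at 4.64 ± 1.94 CPM per kb, with Sis above Alpi in each library. Mme, Treh and Lct each stayed under 1% of the sum in every library.

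The summed level of the 9 enzymes was 113.8, 109.03 and 110.1 CPM per kb in non-degradable PEG, 95.9, 67.3 and 75.7 CPM per kb in degradable PEG and 128.5, 103.9 and 112.3 in Matrigel. Degradable PEG lay below both other matrices, which overlapped. The share of Anpep in this sum was 10.1 ± 1.34% in non-degradable PEG, 13.2 ± 2.07% in degradable PEG and 18.2 ± 0.587% in Matrigel. That of Sis was 4.47 ± 1.51%, 1.14 ± 0.305% and 3.96 ± 1.25% in the same matrices, and that of Alpi was 4.69 ± 2.10%, 1.399 ± 0.0895% and 1.73 ± 0.6001% (SD, n = 3).

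**Figure D3:**
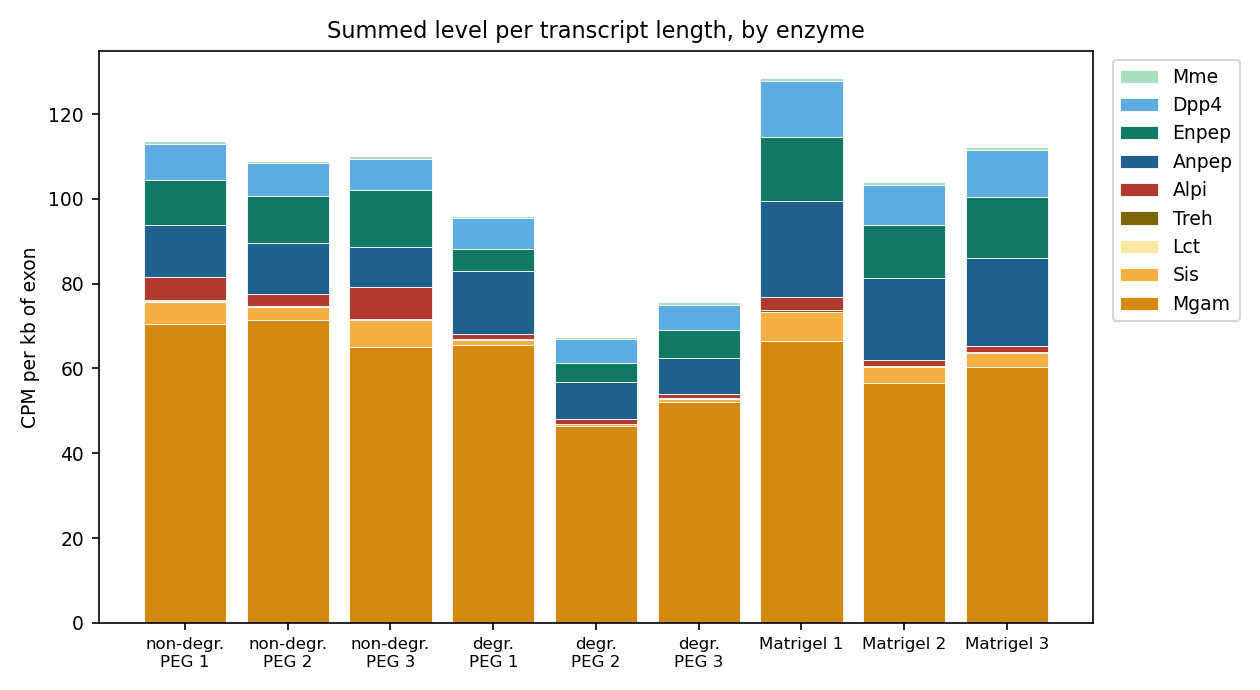
Summed level of the 9 enzymes per kilobase of exon (y axis, CPM per kb) in each of the 9 libraries, stacked by enzyme. Mgam fills more than any other enzyme in every bar, and the bars of degradable PEG (67.3 to 95.9) are lower than those of non-degradable PEG (109.03 to 113.8) and Matrigel (103.9 to 128.5).

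The enzymes also differed in how they varied among libraries of 1 matrix. Alpi and Sis had the same order of libraries in all 3 matrices: replicates 3, 1 and 2 from high to low in non-degradable PEG, replicates 1, 3 and 2 in degradable PEG and 1, 2 and 3 in Matrigel. Mgam in non-degradable PEG ran the other way, with replicates 2, 1 and 3 from high to low. The order of Alpi and Sis was also that of Mgam, Treh and Dpp4 in degradable PEG, and of Lct and Mme in non-degradable PEG. How many of all genes share such an order was not counted. The coefficient of variation of Sis was 34.1% in non-degradable PEG, 43.0% in degradable PEG and 41.9% in Matrigel. That of Alpi was 44.8%, 11.8% and 45.8% in the same matrices, that of Mgam 5.02%, 17.9% and 8.21%, and that of Mme 7.59%, 26.8% and 21.1%. Alpi thus varied more than Mgam and Mme in non-degradable PEG and Matrigel and less than both in degradable PEG.

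For the 3 with the largest spread over the 9 libraries among the 8 tested enzymes, Sis (SD of log2 CPM 1.29), Alpi (1.04) and Lct (0.724), the most similar profiles were sought among 10660 tested genes that averaged 5 CPM or more. Likeness was the root mean square difference of centred log2 CPM over 9 libraries, which share their matrices and their depth. Among the closest to Sis were Fabp1, a fatty acid binding protein (0.455), and Ces2a, a carboxylesterase (0.561). Closest to Alpi were Prap1 (0.374), the cytochrome P450 gene Cyp4f14 (0.386) and the carboxylesterase gene Ces2c (0.422). Closest to Lct were the glutathione transferase gene Gsta1 (0.331), the chloride channel gene Ano1 (0.357) and Ces2c (0.369). Prap1 had 28.1, 16.1 and 31.3 CPM in non-degradable PEG, 9.10, 8.93 and 11.3 CPM in degradable PEG and 20.1, 8.59 and 10.04 CPM in Matrigel.

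**Figure D4:**
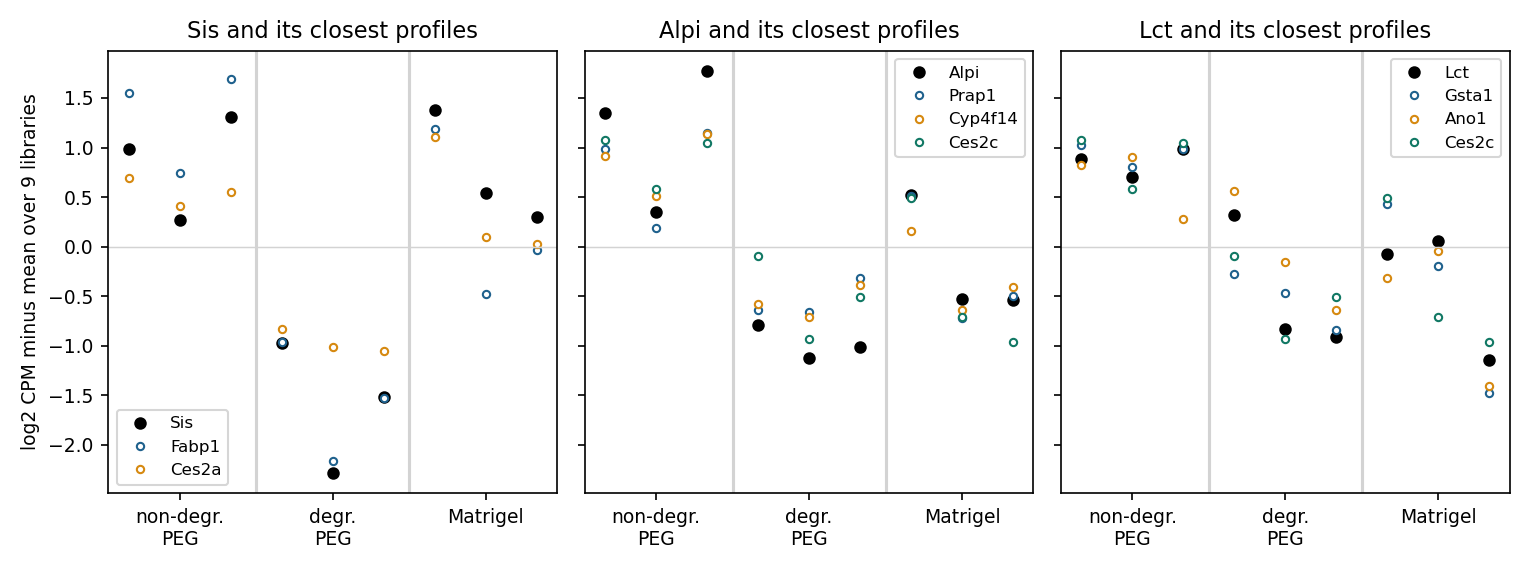
Log2 CPM minus the mean over the 9 libraries (y axis) for Sis, Alpi and Lct (filled) and the genes named as close to each (open), by matrix with replicates 1 to 3 from left to right. For Sis, Fabp1 and Ces2a every degradable PEG library lies below every library of the other matrices.

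The other enzymes of the apical membrane were followed in a list of 18 genes, of which 9 were tested. In non-degradable PEG against Matrigel 5 rose and 1 fell, in degradable PEG against Matrigel 1 rose and 3 fell, and in non-degradable against degradable PEG 3 rose and 0 fell. Their median log2 fold changes were 0.71, 0.15 and 0.69. Mep1b, the beta subunit of the metalloprotease meprin, rose in non-degradable PEG against Matrigel (0.98 ± 0.0895, edgeR adjusted p = 1.03e-04) and against degradable PEG (0.69 ± 0.0889, 0.0109), whereas its partner subunit Mep1a fell in degradable PEG against Matrigel (-0.34 ± 0.0834, 0.0213). Ace, which makes angiotensin II, rose in non-degradable PEG against Matrigel (1.29 ± 0.195, edgeR adjusted p = 0.00144).

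Xpnpep2, a membrane aminopeptidase acting before proline, fell in the non-degradable gel (-0.87 ± 0.120, edgeR adjusted p = 8.21e-04) and in the degradable gel (-0.82 ± 0.120, 0.00136), each against Matrigel. Alpl, the tissue-nonspecific alkaline phosphatase, rose in both (2.43 ± 0.292, edgeR adjusted p = 3.72e-04, and 1.71 ± 0.310, 0.00450), with 17 to 43 counts a library in the PEG gels and 6 or 7 in Matrigel. Folh1 and Enpp7 had 0 counts in every library, and Tmprss15, the enteropeptidase that activates trypsinogen in the duodenum, had at most 1. The call of Mep1a was lost without degradable PEG replicate 2 or Matrigel replicates 1 or 3 (adjusted p 0.0541 to 0.0818). The count of 3 between the PEG gels was 0 without degradable PEG replicate 2 and 1 without degradable PEG replicate 1 or non-degradable PEG replicate 1.

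Of 17 genes for the structure of microvilli, all tested, 8 rose and 1 fell in non-degradable PEG against Matrigel, and 4 rose and 1 fell in degradable PEG against Matrigel. These genes build the actin core and the links between microvilli on which the hydrolases sit. Espn, an actin bundler, rose in non-degradable PEG (1.27 ± 0.168, edgeR adjusted p = 6.57e-04) and in degradable PEG (0.85 ± 0.167, 0.00722). Myo1a, the motor that ties the membrane to the core, rose in both as well (0.98 ± 0.139, edgeR adjusted p = 9.25e-04, and 0.48 ± 0.139, 0.0435), although its call in degradable PEG was lost without any 1 of 6 libraries, replicate 1 of non-degradable PEG, each replicate of degradable PEG and replicates 2 and 3 of Matrigel. The protocadherins Cdhr5 and Cdhr2, which link microvillus tips, rose in non-degradable PEG (0.58 ± 0.125, edgeR adjusted p = 0.00965, and 0.52 ± 0.115, 0.0113). Pdzk1, a scaffold for apical transporters, fell in degradable PEG (-1.38 ± 0.364, edgeR adjusted p = 0.0307), which was lost without replicates 1 or 3 of degradable PEG or 2 or 3 of Matrigel (0.0671 to 0.112). Pdzk1 was also the gene that fell in non-degradable PEG (-1.56). That call was lost without non-degradable PEG replicates 1 or 3 or Matrigel replicate 2 (edgeR adjusted p 0.0562 to 0.0627). Its level was low, at 0.238 to 0.432, 0.263 to 0.594 and 0.666 to 1.24 CPM in non-degradable PEG, degradable PEG and Matrigel. Between the PEG gels 1 rose, Cdhr2 (0.54 ± 0.115, edgeR adjusted p = 0.0490), and 0 fell, a call lost in 11 of 17 alternatives (up to 0.185). The total of 9 called in non-degradable PEG was 4 without non-degradable PEG replicate 3 or Matrigel replicate 2 and 5 without Matrigel replicates 1 or 3. The total of 5 in degradable PEG was 1 without Matrigel replicate 2, 2 without Matrigel replicate 3 or degradable PEG replicate 3, and 3 without degradable PEG replicate 2 or non-degradable PEG replicate 1.

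Transporters that take up the sugars and amino acids freed by these enzymes numbered 10, of which 8 were tested. In non-degradable PEG against Matrigel 4 rose and 0 fell, in degradable PEG against Matrigel 0 passed in either direction, and between the PEG gels 2 rose and 0 fell. Slc7a9 and Slc3a1, the subunits of the cystine and basic amino acid carrier, rose in non-degradable against degradable PEG (1.10 ± 0.228, edgeR adjusted p = 0.0453, and 1.20 ± 0.221, 0.0298) and against Matrigel (1.48 ± 0.231, 0.00172, and 0.74 ± 0.216, 0.0376). Slc7a7, the basolateral exporter of basic amino acids, and Slc2a2, a glucose transporter, rose against Matrigel (0.39 ± 0.0788, edgeR adjusted p = 0.00706, and 1.75 ± 0.452, 0.0233). Slc2a2 was low, at 0.457 to 1.49 CPM in non-degradable PEG and 0.189 to 0.410 CPM in Matrigel. The count against Matrigel was 2, with Slc2a2 and Slc3a1 lost, without non-degradable PEG replicates 1 or 3 or Matrigel replicates 2 or 3. That between the PEG gels was 0 without replicate 1 or 3 of non-degradable PEG or any replicate of degradable PEG, and 1 without non-degradable PEG replicate 2 or Matrigel replicate 2. Without non-degradable PEG replicate 3, 1 fell in degradable PEG against Matrigel.

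**Figure D5:**
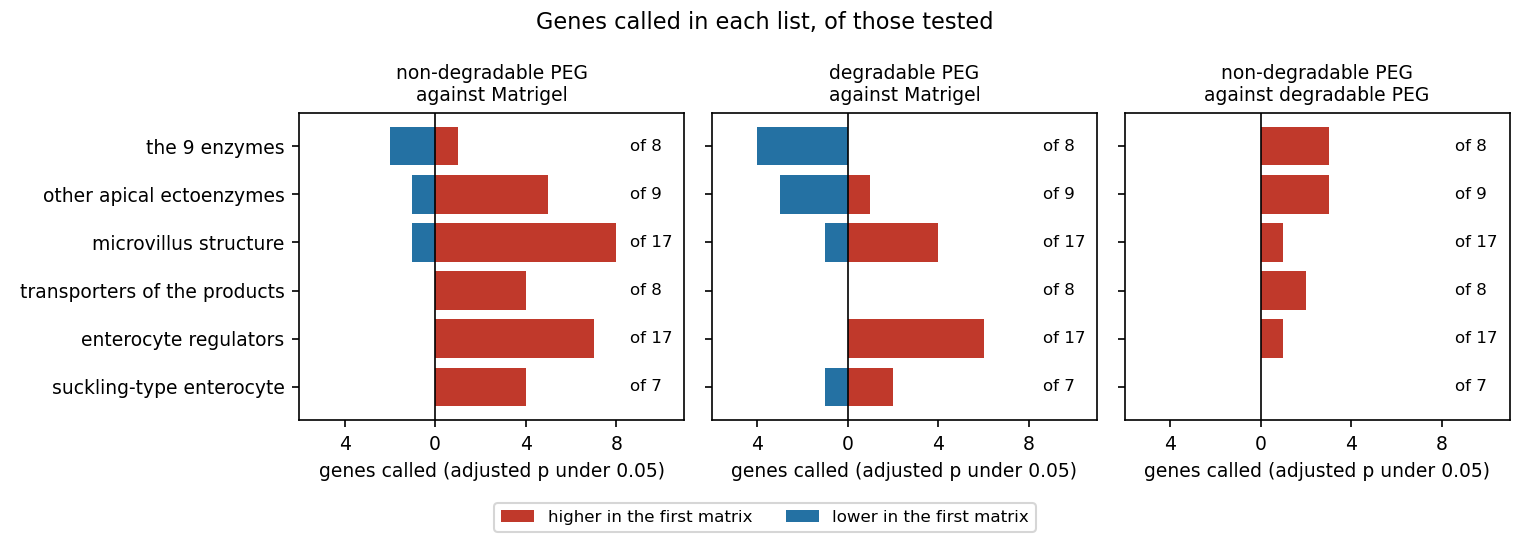
Number of genes called (x axis) in the 9 enzymes and in 5 lists of related genes for each comparison, higher to the right of 0 and lower to the left, with the number tested at the right of each panel. In degradable PEG against Matrigel the 9 enzymes have 4 calls to the left and 0 to the right, while the enterocyte regulators have 6 to the right and 0 to the left.

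Among 17 transcription factors known to act in enterocytes, 7 rose in non-degradable PEG against Matrigel, 6 rose in degradable PEG against Matrigel and 1 rose between the PEG gels, and 0 fell in each. Isx, an intestinal homeobox factor, rose in both PEG gels, averaging 191.0 ± 18.6 CPM in non-degradable PEG and 118.8 ± 12.8 CPM in degradable PEG against 1.08 ± 0.873 CPM in Matrigel (SD, n = 3), and Elf3, Klf4 and Prdm1 rose with it. Creb3l3, a membrane-bound factor of lipid metabolism, was the gene called between the PEG gels (2.16 ± 0.365, edgeR adjusted p = 0.0214), a call lost without non-degradable PEG replicate 1 (0.0837) or degradable PEG replicates 1 (0.0524) or 2 (0.117). Its counts were 162, 93 and 238 in non-degradable PEG, 33, 25 and 47 counts in degradable PEG and 70, 42 and 67 in Matrigel. The factors whose motifs were searched above were chosen for mention after their values were seen. Hnf4a, Hnf4g, Cdx1, Gata4, Gata5 and Gata6 passed in 0 comparisons. Hnf4a was at -0.15 ± 0.0824 in degradable PEG against Matrigel (edgeR adjusted p = 0.276) and 0.21 ± 0.0824 between the PEG gels (0.284). Hnf4g had 28.0 to 29.2 CPM in non-degradable PEG, 14.2 to 28.3 CPM in degradable PEG and 22.3 to 31.4 CPM in Matrigel. Cdx2 rose in non-degradable PEG (0.26 ± 0.0796, edgeR adjusted p = 0.0485) and in degradable PEG (0.28 ± 0.0797, 0.0423) against Matrigel, calls that 7 and 6 of 17 alternatives ended (adjusted p up to 0.192 and 0.147). The count of 7 was 4 without non-degradable PEG replicate 3, and that of 1 between the PEG gels was 2 without Matrigel replicate 1.

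Genes that mark the suckling and the adult enterocyte in mice were set beside the enzymes because Lct belongs to the first stage and Sis and Treh to the second. Of 8 suckling-type genes 7 were tested, and 4 rose and 0 fell in non-degradable PEG against Matrigel. Among them were Ass1 of arginine synthesis (0.76 ± 0.0953, edgeR adjusted p = 4.92e-04) and Lrp2, the endocytic receptor megalin (2.57 ± 0.436, 0.00278). Lrp2 was low, at 2.51 to 6.66 CPM in non-degradable PEG and 0.486 to 1.12 CPM in Matrigel. The summed level of the 8 genes did not rise, at 599 to 647 CPM in non-degradable PEG and 637 to 772 CPM in Matrigel. Glb1, not called there, had 129 to 150 and 155 to 168 CPM in these 2 matrices. In degradable PEG against Matrigel 2 rose, Ass1 and Prdm1, and 1 fell, the lysosomal galactosidase Glb1 (-0.33 ± 0.0833, edgeR adjusted p = 0.0259), which was lost without replicates 1 or 3 of degradable PEG or of Matrigel (0.0541 to 0.0864). Between the PEG gels 0 passed, and 1 without Matrigel replicate 1. Of the adult-type genes Sis, Treh and Arg2, 2 were tested, and Sis was the gene called, as given above. Of 4 genes of the proximal small intestine, Cybrd1 rose in non-degradable PEG against Matrigel (1.84 ± 0.402, edgeR adjusted p = 0.0107), and Fabp1 fell in degradable PEG against Matrigel (-1.87 ± 0.435, 0.0175) and rose in non-degradable against degradable PEG (2.85 ± 0.440, 0.0152). In non-degradable PEG against Matrigel 2 of these 4 rose with the replicate block, and likewise without degradable PEG replicate 2 or Matrigel replicate 1. The fall of Fabp1 was lost without replicates 2 or 3 of degradable PEG or replicate 1 of Matrigel (0.0515 to 0.0728), and its rise without replicate 1 of non-degradable PEG or replicate 2 of degradable PEG. Of 5 genes of the ileum 1 was tested, and it passed in 0 comparisons. In non-degradable PEG against Matrigel the ileum list had 2 calls, both higher, without non-degradable PEG replicate 2, and 1 without any replicate of degradable PEG or Matrigel. It had 1 in degradable PEG against Matrigel without non-degradable PEG replicate 2 or 3.

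Markers of the other epithelial cell types moved with the matrices. The 6 Paneth cell markers summed to 309 to 493 CPM in non-degradable PEG, 362 to 401 CPM in degradable PEG and 803 to 1583 CPM in Matrigel, and 4 of them fell in each PEG gel against Matrigel while 1, Mmp7, rose in degradable PEG. The 6 goblet cell markers summed to 189 to 257, 135 to 199 and 573 to 1045 CPM, and 3 fell in non-degradable and 4 in degradable PEG. The 6 enteroendocrine markers summed to 16.7 to 23.5, 23.7 to 34.8 and 89.1 to 149.1 CPM, and all 5 tested fell in each gel. The 5 tuft cell markers summed to 3.44 to 3.96, 3.44 to 4.87 and 8.43 to 10.1 CPM, and 2 of the 3 tested fell in each gel. Of the 6 stem cell markers, all tested, 1 rose and 3 fell in non-degradable PEG against Matrigel. In degradable PEG against Matrigel 2 rose and 1 fell, and between the PEG gels 0 rose and 1 fell. Without 1 library these totals ran from 3 to 4, from 2 to 4 and from 0 to 1. Among 10 tested enterocyte markers 3 rose and 1 fell in non-degradable PEG against Matrigel, 0 rose and 2 fell in degradable PEG against Matrigel, and 4 rose and 0 fell between the PEG gels. The 4 calls of the first comparison were 7 with the replicate block and 2 without replicates 1 or 3 of non-degradable PEG. The last count was 0 without non-degradable PEG replicate 1 or degradable PEG replicate 2 and 7 without Matrigel replicate 1, and the count in degradable PEG against Matrigel was 4 without degradable PEG replicate 1 and 1 without degradable PEG replicates 2 or 3 or Matrigel replicate 1. The part of these cell types in the levels of the 9 enzymes was not tested.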

How the data were processed

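The input was 9 tables of counts per gene, 1 for each library, which the authors deposited. According to the submitters' processing notes these counts were made by trimming with cutadapt 1.3, alignment to GRCm38 with STAR 2.4.2a and counting with HTSeq 0.6.1. Per the labels' protocols, the library kit was TruSeq Stranded mRNA. The sources used here do not give the gene annotation or the strand setting of the counting.

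The 5 tally rows of each table were left out. Reads without a feature were 7.29% to 11.2% and ambiguous reads 1.09% to 1.16% of the assigned, featureless and ambiguous reads together. Non-unique alignments were tallied apart and numbered 65.15 to 71.85 per 100 assigned reads. Symbols, coordinates and exon lengths came from GENCODE release M21 and matched 46005 of 46517 genes. The members and lists were chosen with earlier results of these data known, and the motifs after the promoter sequences were read. All 9 libraries, 3 per matrix, entered 1 fit with 1 mean per matrix in edgeR 4.0.16 (TMM scaling, filterByExpr, quasi-likelihood F test, 6 residual degrees of freedom), run in R 4.3.3. P-values were adjusted over 14870 genes (Benjamini-Hochberg, called under 0.05). A standard error was the log2 fold change divided by the root of F, and the biological coefficient of variation was 11.03%. The test was tried on simulated counts. Alternatives used limma 3.58.1 (voom), DESeq2 1.42.0, other scalings and filters, a fit of the compared groups only, a replicate block and leaving out each library. No 2 libraries were duplicates.

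The labels number the replicates without saying what a number shares. Deviations of same-numbered libraries correlated at 0.331, 0.176 and 0.186 between non-degradable PEG and Matrigel, which was taken as pairing. They correlated at 0.258, 0.0712 and 0.226 between degradable PEG and Matrigel and at 0.288, 0.0197 and 0.511 between the PEG gels. Those were not taken as pairing, since replicate 2 was low in each. Libraries with unlike numbers correlated at -0.257 to 0.0386 between non-degradable PEG and Matrigel. The same values were -0.238 to 0.0392 between degradable PEG and Matrigel and -0.454 to 0.257 between the PEG gels. Calls are from the fit without the block unless stated. Named were all 9 enzymes, at most 4 called genes with the smallest p per list and comparison, and the 3 nearest profiles of the 3 most variable enzymes, with further genes marked as such; 2 genes that the lists or this rule include are not reported here.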

Additional observations from a re-analysis of the deposited data

How the results depend on the processing

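Over 17 alternative analyses (16 for Lct, which has no value with a filter of 5 CPM), 368 of 405 values of the 8 tested enzymes kept their direction and their side of the threshold, 12 lost and 13 gained a call, and 12 changed sign, all of them differences that had not passed. Enzymes called numbered 1 to 4 without 1 library in non-degradable PEG against Matrigel, 4 to 5 in degradable PEG against Matrigel and 1 to 4 between the PEG gels. With a replicate block, which for the comparisons with degradable PEG rests on a shared number alone, 5 enzymes were called between the PEG gels, Dpp4 (adjusted p 0.0443) and Mme (0.0477) being added, and in degradable PEG against Matrigel Mme was added (0.0192). Over all genes, 2504 calls in non-degradable PEG against Matrigel became 3877 with the block and 1189 to 3247 without 1 library. The 1815 in degradable PEG against Matrigel became 2783 with the block, 1105 with the filter of 5 CPM and 1086 to 2395 without 1 library. The 190 between the PEG gels became 542 with the block, 521 without a filter, 512 with DESeq2 and 19 to 242 without 1 library; the causes were not tested.

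Of the differences that changed sign, Sis in non-degradable PEG against Matrigel ran from -0.15 to 0.49 without 1 library. Mme there ran from -0.16 to 0.11, and was -0.0048 without a filter. Lct in degradable PEG against Matrigel ran from -0.57 to 0.18, and Anpep in non-degradable against degradable PEG from -0.066 to 0.37. The regulator Hnf4a, which passed nowhere, ran from -0.014 to 0.14 in non-degradable PEG against Matrigel. Lct in non-degradable PEG against Matrigel passed in 7 of 16 alternatives, with an adjusted p as low as 0.0251, and Alpi in degradable PEG against Matrigel passed without a filter (0.0313). Without a filter 8 enterocyte markers were called between the PEG gels, against 4, and with the filter of 5 CPM 0 genes of the proximal small intestine in non-degradable PEG against Matrigel, against 1. Depth limits Lct and Treh, at 1 to 42 counts a library.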
